A study of Homo sapiens with 12 samples.

Results

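The Kruppel-like factors are DNA-binding proteins named after the Drosophila segmentation gene Kruppel, and 10 of their genes, KLF2, KLF3, KLF4, KLF5, KLF6, KLF7, KLF9, KLF10, KLF11 and KLF13, were followed here among the 58347 genes counted in each sample. The genes were chosen by name, with earlier results of these data known, and were matched through their Ensembl identifiers. All 10 passed the filter on low counts that left 16740 genes for testing. The cells were A375, an established line from a human melanoma with mutant BRAF, and their RNA was sequenced 8 h after addition of the vehicle dimethyl sulfoxide (DMSO), tretinoin, vemurafenib or both drugs together. Vemurafenib inhibits the mutant BRAF kinase upstream of MEK and ERK, and tretinoin (all-trans retinoic acid) activates the retinoic acid receptors. Each of the 4 groups held 3 samples, and every group, DMSO included, is listed at 5 µM. All samples came from 1 cell line, and the labels do not say whether replicates were separate cultures, so the p-values measure the spread between these samples, which may be technical.

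Kruppel-like factors share a C-terminal block of zinc fingers that binds GC boxes and CACCC boxes in promoters, and they differ in the N-terminal part that recruits cofactors. KLF2, KLF4, KLF5, KLF6 and KLF7 carry activation domains and recruit acetyltransferases. KLF3 carries a motif that binds the corepressor CtBP, and KLF9, KLF10, KLF11 and KLF13 bind the SIN3A corepressor. KLF10 and KLF11 were first described as genes induced by TGF-beta, and KLF4 and KLF6 belong to the early growth and stress response genes in many cell types.

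Reference promoter sequence was available for 8 of the 10 genes, as 13 windows of 300 bases around RefSeq transcription starts on GRCh38.p14, with no entry used for KLF3 or KLF10. The 5 stretches below are those of the genes with a single window that were called changed with vemurafenib. They are shown so that the promoters of genes that fell can be read beside that of KLF13, which rose. Each is 120 bases long, lies upstream of the start, is written 5′ to 3′ on the strand of the gene and lies outside annotated exons. Capitals mark GC boxes (GGGCGG on either strand) and, in KLF2 only, a match to the MEF2 box as well, the binding motif of the MEF2 factors through which the ERK5 kinase induces KLF2. KLF2 is on the plus strand (chr19:16324697-16324816), KLF4 on the minus strand (chr9:107489770-107489889), KLF6 on the minus strand (chr10:3785282-3785401), KLF9 on the minus strand (chr9:70414658-70414777) and KLF13 on the plus strand (chr15:31326715-31326834).
KLF2: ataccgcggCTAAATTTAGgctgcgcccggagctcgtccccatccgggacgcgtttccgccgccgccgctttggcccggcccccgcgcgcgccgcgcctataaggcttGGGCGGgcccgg
KLF4: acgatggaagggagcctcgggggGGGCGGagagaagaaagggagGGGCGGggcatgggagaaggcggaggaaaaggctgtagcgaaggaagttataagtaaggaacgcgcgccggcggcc
KLF6: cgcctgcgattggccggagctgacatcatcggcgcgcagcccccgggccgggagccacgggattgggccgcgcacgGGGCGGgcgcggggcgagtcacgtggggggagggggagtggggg
KLF9: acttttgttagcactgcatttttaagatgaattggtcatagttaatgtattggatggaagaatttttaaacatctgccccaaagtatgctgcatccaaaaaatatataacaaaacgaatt
KLF13: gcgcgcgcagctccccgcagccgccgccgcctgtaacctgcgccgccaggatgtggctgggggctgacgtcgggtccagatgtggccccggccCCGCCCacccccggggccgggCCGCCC

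The KLF2 stretch held 1 GC box and the MEF2 box. The KLF4 and KLF13 stretches held 2 GC boxes each, the KLF6 stretch held 1 and the KLF9 stretch held 0. Over the whole windows, GC content was 80.7% for KLF2 and 78.3% for KLF13 against 32.7% for KLF9, with a median of 58.7% over 35116 promoter windows. A GC box was present in 8 of the 13 windows of these genes, against 45.0% of all windows, and a CACCC box (CACCC on either strand) in 7 of the 13, against 59.9% of all windows. In KLF13 the last base of a GC box is the first base of a CACCC box. The MEF2 box was found in 0.572% of all windows and in 1 of the 13, that of KLF2. A cAMP response element (TGACGTCA, 1.85% of all windows) was found in 1 of the 13, a window of KLF11. The retinoic acid response elements DR5 and DR2, present in 0.0883% and 0.0399% of all windows, had no match in these 13 windows, which says only that those letters are not in these bases.

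The totals of the count files were between 13510235 and 21534377 per sample. Tretinoin replicate 1 stood apart from the other two tretinoin samples, with a chi-square per degree of freedom of 21.4 and 24.4 over genes, against 2.69 to 9.28 for every other pair of replicates. Without that sample KLF6 fell by 0.46 with tretinoin (adjusted p = 0.000636), the uncalled tretinoin effect on KLF9 went from 0.21 to 0.11, and the interaction of the drugs on KLF9 was 0.79 (adjusted p = 6.57e-05). Known outputs of both drugs were checked. All 5 ERK output genes (DUSP6, SPRY2, SPRY4, ETV4, ETV5) fell with vemurafenib, with a median log2 fold change of -4.67, where 26.3% of all tested genes fell. With tretinoin 2 of 4 retinoid response genes rose and 2 were not called, where 3.48% of all tested genes rose. Those that rose were DHRS3, by 2.91 ± 0.09, and STRA6, by 1.34 ± 0.09 (log2 fold change ± SE). Vemurafenib alone also moved both, DHRS3 by 1.74 ± 0.09 and STRA6 by -0.72 ± 0.09. Of 9 melanocyte lineage markers 5 passed the count filter. SOX10 had 0 counts in all 12 samples and TYR at most 1, so these defining markers of pigment cells were absent or nearly so, while MITF and S100B were present. The 5 markers of other cell types summed to between 13.9 and 19.4 normalized counts per 1000000 counts (CPM) in DMSO, 15.1 and 18.5 in tretinoin, 32.8 and 35.5 in vemurafenib and 30.6 and 40.8 in the combination. Of these 5 markers 4 passed the count filter, and EPCAM had at most 7 counts. With vemurafenib 2 of the 4 were called, both higher, where 26.4% of all tested genes rose. They were the keratin gene KRT14, by 1.24 ± 0.21 (adjusted p = 7.01e-05), and the leukocyte gene PTPRC, by 1.36 ± 0.32 (adjusted p = 0.00161). KRT5 (0.32 ± 0.34) and PECAM1 (-0.83 ± 0.44) were not called. KRT14 had a mean of 11.02 CPM in DMSO and 26.05 in vemurafenib. With tretinoin 1 of the 4, PTPRC, was called, higher by 1.46 ± 0.32 (adjusted p = 0.0121). PTPRC had at most 83 counts in a sample. The 9 melanocyte markers summed to between 28.2 and 33.1 CPM in DMSO, 26.5 and 31.2 in tretinoin, 46 and 48.8 in vemurafenib and 42.1 and 43.5 in the combination. With vemurafenib 2 of the 5 melanocyte markers tested were called, both higher, where 26.4% of all tested genes rose. They were MITF, by 0.88 ± 0.10 (adjusted p = 1.25e-06), and TYRP1, by 2.32 ± 0.32 (adjusted p = 1.09e-05). PMEL (-0.52 ± 0.35), S100B (0.02 ± 0.14) and S100A1 (0.28 ± 0.27) were not called. TYRP1 had at most 45 counts in a sample. It passed the count filter through the samples with vemurafenib, where it was highest, so its called rise is not independent of the filter. These markers moved in the same samples as the KLF genes, and their part in the KLF results was not tested.

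Levels of the genes were first compared within DMSO, per kilobase of exon because the transcripts differ in length. KLF5, a factor of proliferating epithelial cells, was the highest of the 10 at 24.0 ± 3.04 CPM per kb (SD, n = 3). KLF9, KLF10, KLF2 and KLF6 followed at 13.4 ± 0.271, 13.4 ± 1.16, 12.8 ± 1.35 and 11.2 ± 0.385 CPM per kb, and neighbours within this run overlapped between samples. KLF4 was at 9.11 ± 1.11, KLF3 at 4.50 ± 0.467, KLF13 at 2.83 ± 0.416, KLF11 at 1.73 ± 0.189 and KLF7 at 0.679 ± 0.0943 CPM per kb, each below the one before it in all samples. With vemurafenib KLF13 moved from the eighth place to the second, at 7.27 ± 0.693 CPM per kb, overlapping KLF10 at 6.87 ± 0.0222. KLF4 moved from the sixth place to the eighth, at 2.76 ± 0.218 CPM per kb. In the combination KLF9 was again second at 11.5 ± 1.12 CPM per kb, overlapping KLF10 as it had in DMSO, and KLF3 rose to the fourth at 8.07 ± 0.552 CPM per kb. KLF5 was first and KLF11 and KLF7 were the last 2 in all 4 groups. Summed over the 10 genes, the level was between 393 and 426 CPM in DMSO and between 384 and 440 CPM in tretinoin. It was between 317 and 333 CPM in vemurafenib and between 315 and 348 CPM in the combination.

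**Figure D1:**
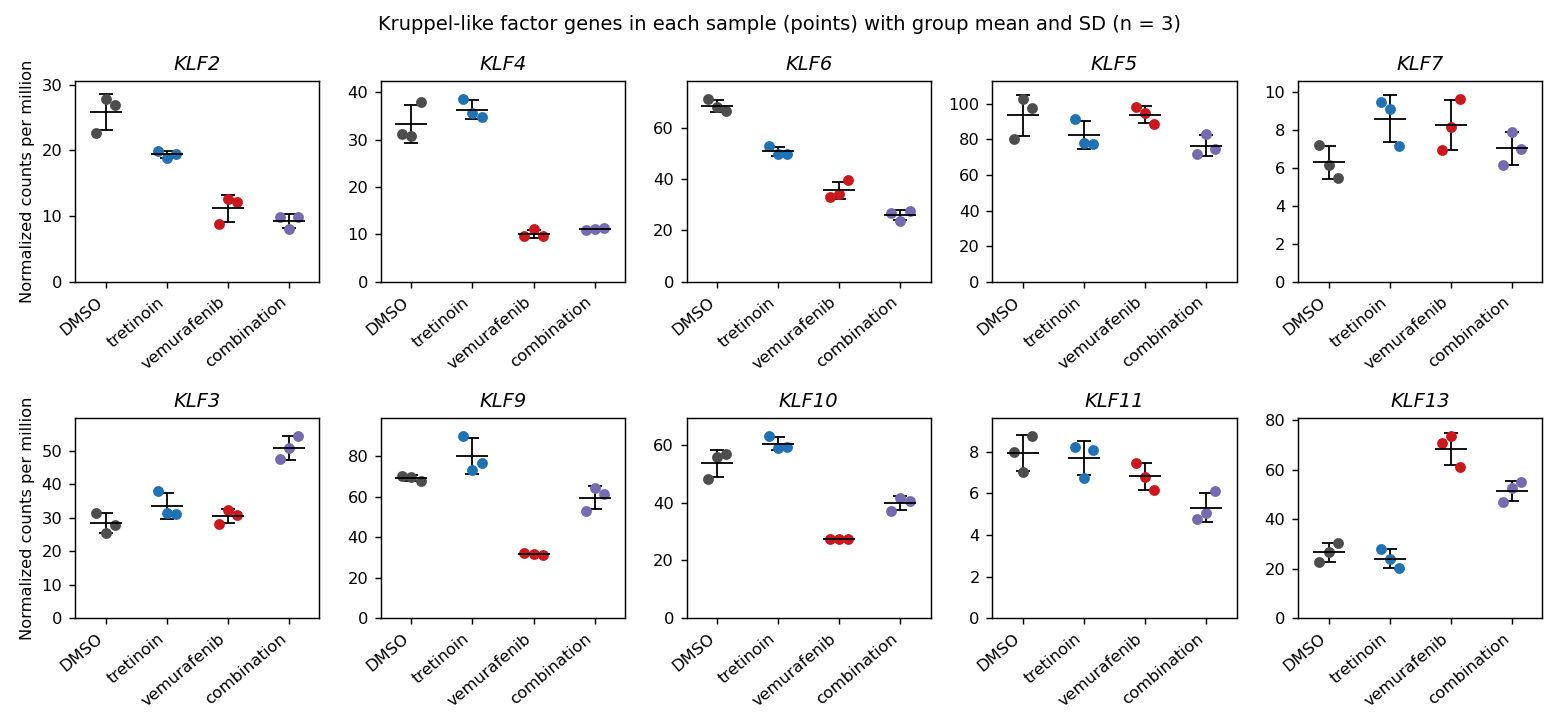
Normalized CPM (y axis, from 0) of each Kruppel-like factor gene in the 4 treatment groups (x axis). Points are the 3 samples of a group, and the black line and whiskers are the mean and SD. KLF2, KLF4 and KLF6 sit lower in both groups with vemurafenib, KLF13 sits higher, and KLF9 and KLF10 lie lowest with vemurafenib alone.

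Vemurafenib alone was compared with DMSO to ask how the KLF genes respond to inhibition of mutant BRAF. KLF4, KLF2, KLF9, KLF10 and KLF6 fell between 1.93-fold and 3.30-fold, KLF13 rose 2.56-fold, and KLF7 rose 1.31-fold with overlapping samples. Among the 10 genes 5 were called lower and 2 higher at an adjusted p below 0.05 (edgeR), where 52.6% of all tested genes were called, 26.3% lower and 26.4% higher. The median log2 fold change was -0.58 over the 10 genes and 0.02 over all genes tested. Over the 4 other KLF genes that were tested, described below, it was 0.50, with 3 called higher and 1 lower. The balance of falls and rises thus depends on which KLF genes are counted. By type, 3 of the 5 activator-type genes fell and 1 rose, 2 of the 4 SIN3A-binding genes fell and 1 rose, and KLF3 was not called.

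KLF4, an early response gene that restrains the cell cycle in epithelia and is also known as a reprogramming factor, was measured at 31.3, 30.7 and 38.0 CPM in DMSO, 38.5, 35.6 and 34.7 in tretinoin, 9.56, 11.02 and 9.73 in vemurafenib and 10.9, 11.2 and 11.3 in the combination. The 6 samples with vemurafenib all lay far below the 6 without it, and the DMSO and tretinoin samples overlapped. Relative to DMSO, KLF4 changed by a log2 fold change of -1.72 ± 0.10 (SE) with vemurafenib (adjusted p = 2.23e-10), the largest fall among the 10 genes, and -1.59 ± 0.10 with the combination (adjusted p = 4.8e-10).

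KLF2, which keeps endothelial cells and T cells quiescent, was measured at 22.7, 27.8 and 26.9 CPM in DMSO, 19.9, 18.8 and 19.4 in tretinoin, 8.83, 12.6 and 12.1 in vemurafenib and 9.79, 8.08 and 9.92 in the combination. Every tretinoin sample was below every DMSO sample, every sample with vemurafenib was lower still, and vemurafenib and the combination overlapped. KLF2 changed by a log2 fold change of -1.21 ± 0.12 with vemurafenib (adjusted p = 3.27e-07) and -1.48 ± 0.13 with the combination (adjusted p = 2.73e-08).

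KLF6, a ubiquitous early response factor that induces the CDK inhibitor gene CDKN1A, was measured at 71.1, 68.0 and 66.4 CPM in DMSO, 52.9, 49.7 and 49.7 in tretinoin, 32.8, 34.4 and 39.5 in vemurafenib and 26.8, 23.7 and 27.5 in the combination. The 4 groups did not overlap, and they stepped down from DMSO to tretinoin, vemurafenib and the combination. On the log2 scale KLF6 changed by -0.95 ± 0.08 with vemurafenib (adjusted p = 2.9e-08) and -1.40 ± 0.08 with the combination (adjusted p = 2.35e-10).

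KLF9, a gene induced by glucocorticoid and thyroid hormone, was measured at 70.6, 69.6 and 67.8 CPM in DMSO, 90.1, 73.2 and 76.7 in tretinoin, 32.4, 32.0 and 31.4 in vemurafenib and 53.2, 64.3 and 61.4 in the combination. The vemurafenib samples were the lowest and lay close together, the combination samples lay between them and DMSO, and tretinoin replicate 1 was the highest of the 12. With vemurafenib KLF9 changed by a log2 fold change of -1.12 ± 0.09 (adjusted p = 8.42e-09). KLF10, the TGF-beta inducible early gene, was measured at 48.3, 55.9 and 56.7 CPM in DMSO, 63.0, 58.9 and 59.2 in tretinoin, 27.5, 27.6 and 27.4 in vemurafenib and 37.1, 41.6 and 40.7 in the combination. The groups followed the same order as for KLF9 without overlap. With vemurafenib KLF10 changed by -0.96 ± 0.08 (adjusted p = 1.47e-08).

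KLF13, a SIN3A-binding factor known from T cells and heart, was measured at 22.7, 26.7 and 30.5 CPM in DMSO, 28.0, 23.9 and 20.2 in tretinoin, 70.6, 73.5 and 61.1 in vemurafenib and 47.1, 52.4 and 55.0 in the combination. All 6 samples with vemurafenib were above all 6 without it, and the vemurafenib samples were above those of the combination. KLF13 changed by a log2 fold change of 1.36 ± 0.12 with vemurafenib (adjusted p = 3.41e-08) and 0.95 ± 0.12 with the combination (adjusted p = 2.62e-06). KLF13 thus rose where its SIN3A-binding relatives KLF9 and KLF10 fell.

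KLF7, known for its role in sensory neurons, was measured at 7.22, 6.15 and 5.49 CPM in DMSO, 9.46, 9.13 and 7.18 in tretinoin, 6.96, 8.18 and 9.61 in vemurafenib and 6.16, 7.90 and 7.02 in the combination. The 4 groups overlapped at this low level. Its log2 fold change of 0.39 ± 0.16 with vemurafenib (adjusted p = 0.0437) rested near the threshold, and the call was lost in DESeq2 (adjusted p = 0.0915) and without DMSO replicate 2 or 3 or vemurafenib replicate 2 or 3 (adjusted p up to 0.195).

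KLF5 was measured at 80.1, 102.6 and 97.7 CPM in DMSO, 91.5, 77.8 and 77.7 in tretinoin, 98.5, 94.8 and 88.6 in vemurafenib and 71.7, 83.2 and 74.6 in the combination. The vemurafenib samples lay inside the DMSO range. The log2 fold change of KLF5 with vemurafenib was 0.01 ± 0.09 with a 95% interval from -0.19 to 0.20, which leaves out the falls of KLF2, KLF4 and KLF6. KLF11, a low-expressed relative of KLF10 that acts on the insulin gene in pancreatic beta cells, was measured at 7.99, 7.03 and 8.76 CPM in DMSO, 8.21, 6.74 and 8.11 in tretinoin, 7.48, 6.78 and 6.19 in vemurafenib and 4.79, 5.06 and 6.11 in the combination. The first 3 groups overlapped, and the combination samples lay below all of them. The log2 fold change of KLF11 was -0.22 with vemurafenib (95% interval -0.51 to 0.07) and -0.58 ± 0.14 with the combination (adjusted p = 0.00218).

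**Figure D2:**
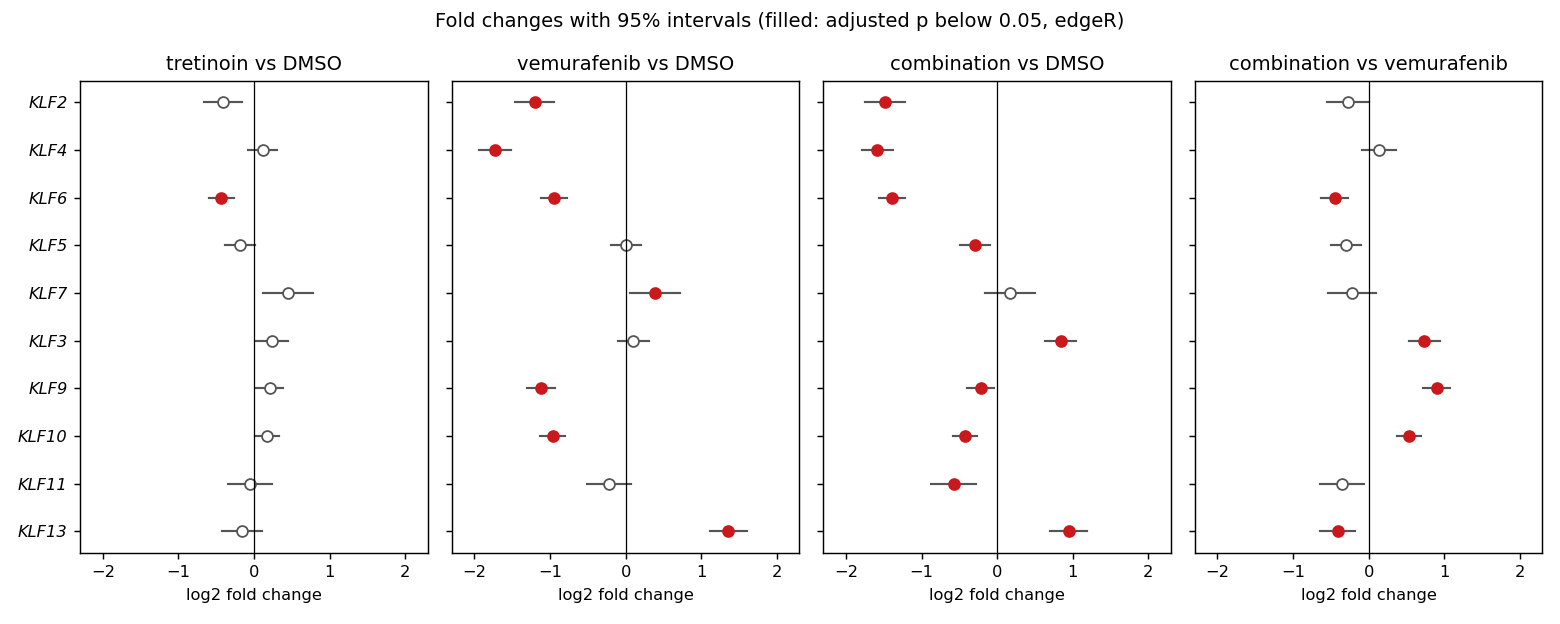
Log2 fold change of each Kruppel-like factor gene (x axis) in 4 comparisons, with lines for the 95% intervals and filled red points for an adjusted p below 0.05 in edgeR. KLF4 fell by 1.72 with vemurafenib and KLF13 rose by 1.36, the intervals of KLF5 and KLF3 spanned 0 with vemurafenib alone, and KLF3, KLF9 and KLF10 lay above 0 in the combination relative to vemurafenib.

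The combination was compared with DMSO as the full treatment. KLF4, KLF2 and KLF6 fell between 2.63-fold and 3.0-fold, KLF13 rose 1.93-fold, and KLF3, which was not called with either drug alone, rose 1.79-fold. Of the 10 genes 7 were called lower and 2 higher, where 53.6% of all tested genes were called, 26.5% lower and 27.1% higher. The median log2 fold change was -0.36 over the 10 genes and 0.03 over all genes tested. KLF10 fell by 0.43 ± 0.08 (adjusted p = 0.000125) and KLF11 as given above. The falls of KLF5 (-0.29 ± 0.09, adjusted p = 0.0144) and KLF9 (-0.22 ± 0.08, adjusted p = 0.0356) were small. They were not called when counts were scaled by total counts only, which moved the median gene by 0.16 in this comparison, to log2 fold changes of -0.12 (adjusted p = 0.283) and -0.06 (adjusted p = 0.634). The call of KLF5 was also lost without DMSO replicate 2 (adjusted p = 0.0826) or combination replicate 1 (adjusted p = 0.0604), and that of KLF9 without DMSO replicate 1 (adjusted p = 0.0772), DMSO replicate 2 (adjusted p = 0.075) or combination replicate 1 (adjusted p = 0.169).

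Tretinoin alone was compared with DMSO. KLF6 fell 1.35-fold and was the only 1 of the 10 genes called in edgeR, where 5.68% of all tested genes were called, 2.2% lower and 3.48% higher. Its log2 fold change was -0.43 ± 0.08 (adjusted p = 0.00302). KLF2 lay at the threshold, with a log2 fold change of -0.42 ± 0.12 (adjusted p = 0.0503), and it was called in DESeq2 (adjusted p = 0.0329). It was also called in edgeR without DMSO replicate 1 or tretinoin replicate 1 (adjusted p = 0.0412 in each). KLF9 and KLF10 were higher in every tretinoin sample than in every DMSO sample, with log2 fold changes of 0.21 ± 0.08 (adjusted p = 0.149) and 0.17 ± 0.08 (adjusted p = 0.183) that did not pass the test. With KLF2 and KLF6 this made 4 of the 10 genes whose tretinoin and DMSO samples did not overlap, where 24.2% of all tested genes did not. KLF7 had a log2 fold change of 0.45 ± 0.16 (adjusted p = 0.105), and it was called without tretinoin replicate 3 (0.57, adjusted p = 0.0451). The median log2 fold change was 0.03 over the 10 genes and 0.01 over all genes tested.

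The combination relative to vemurafenib alone gives the effect of tretinoin in cells whose BRAF is inhibited. KLF9 rose 1.87-fold, KLF3 1.67-fold and KLF10 1.45-fold, while KLF6 fell 1.37-fold and KLF13 1.33-fold. These were 3 genes higher and 2 lower of 10, where 4.47% of all tested genes were called, 2.27% higher and 2.2% lower. KLF3, a CtBP-dependent repressor of the erythroid and fat lineages, was measured at 31.5, 25.6 and 28.0 CPM in DMSO, 38.1, 31.3 and 31.1 in tretinoin, 28.2, 32.3 and 30.9 in vemurafenib and 47.4, 50.6 and 54.4 in the combination. The DMSO, tretinoin and vemurafenib samples overlapped, and the 3 combination samples were above all 9 others. The log2 fold change of KLF3 was 0.74 ± 0.10 relative to vemurafenib (adjusted p = 7.24e-05), 0.61 ± 0.10 relative to tretinoin (adjusted p = 4.52e-05) and 0.84 ± 0.10 relative to DMSO (adjusted p = 1.09e-06). Relative to DMSO it was 0.10 with vemurafenib alone (95% interval -0.10 to 0.31) and 0.24 ± 0.10 with tretinoin alone (adjusted p = 0.163). With counts scaled by total counts only, the vemurafenib value of KLF3 became 0.30 (adjusted p = 0.0327), in a comparison whose median gene moved by 0.19 under that scaling.

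In the same comparison KLF9 had a log2 fold change of 0.90 ± 0.09 (adjusted p = 2.63e-06) and KLF10 one of 0.54 ± 0.08 (adjusted p = 0.000256). KLF6 fell by 0.45 ± 0.08 (adjusted p = 0.00248), close to its fall with tretinoin in the absence of vemurafenib. KLF13 fell by 0.41 ± 0.11 (adjusted p = 0.0406). That call was lost in 5 of the 6 fits that left out a sample, all but the one without vemurafenib replicate 3, with an adjusted p of up to 0.205. KLF5 and KLF11 were lower in every combination sample than in every vemurafenib sample but did not pass the test (adjusted p = 0.0892 and 0.218). The share of all tested genes that separate in this way was not computed for this comparison. KLF5 was called in a fit of only the samples of these groups (-0.30, adjusted p = 0.00481). KLF4 differed by 0.14, with a 95% interval from -0.09 to 0.36, so a change of the size seen for KLF3 or KLF9 lies outside that interval.

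The combination relative to tretinoin alone shows the effect of vemurafenib with tretinoin present. KLF4 fell 3.26-fold, KLF2 2.09-fold and KLF6 1.95-fold, and KLF13 rose 2.15-fold (adjusted p = 5.69e-07). Of the 10 genes 6 were called lower and 2 higher, where 49.1% of all tested genes were called, 25% lower and 24.1% higher. KLF10 fell by 0.60 ± 0.08, KLF11 by 0.52 ± 0.14 and KLF9 by 0.42 ± 0.08 on the log2 scale. KLF3 rose as given above, and KLF5 and KLF7 were not called, although KLF7 was called without tretinoin replicate 3 (-0.40, adjusted p = 0.0491). In the absence of tretinoin, vemurafenib had changed KLF9 by -1.12 and KLF10 by -0.96 on the same scale.

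The interaction of the drugs tests whether tretinoin acted differently with and without vemurafenib, as the tretinoin effect with vemurafenib minus that without it on the log2 scale. KLF9 was the only 1 of the 10 genes called, where 0.806% of all tested genes were called, 0.382% higher. The interaction of KLF9 was 0.70 ± 0.12 (adjusted p = 0.00797), from a tretinoin effect of 0.21 without vemurafenib and 0.90 with it. The call held in all 19 alternative fits, with values from 0.59 to 0.79 and an adjusted p of at most 0.0412. For KLF3 the interaction was 0.50 ± 0.14 (adjusted p = 0.107), and it was called without tretinoin replicate 1 (0.60, adjusted p = 0.0095). For KLF10 it was 0.37 ± 0.11 (adjusted p = 0.133) and for KLF7 -0.67 ± 0.22 (adjusted p = 0.173). For KLF6 the interaction was -0.02 with a 95% interval from -0.26 to 0.22, and for KLF4 it was 0.02 with an interval from -0.28 to 0.31.

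**Figure D3:**
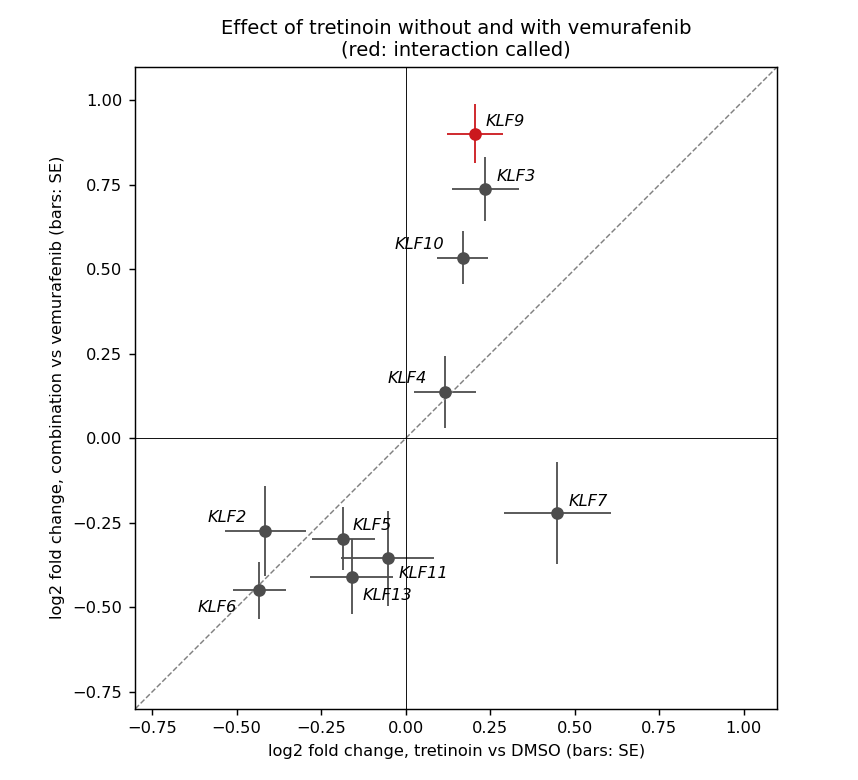
Log2 fold change with tretinoin in the absence of vemurafenib (x axis) against that in its presence (y axis) for the 10 genes, with bars for SE and a dashed line where both are equal. KLF9 (red, 0.21 and 0.90) is the gene called for the interaction, KLF3 and KLF10 lie above the line on the same side, and KLF6 (-0.43 and -0.45) lies on the line.

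Of the 8 other KLF genes 4 passed the filter, and KLF1, KLF8, KLF17 and KLF18 had at most 8 counts in any sample. KLF16, a SIN3A-binding relative of KLF9 and KLF13 whose mean level in DMSO was 14.7 ± 1.87 CPM per kb, was measured at 38.7, 49.5 and 42.2 CPM in DMSO and 17.9, 20.1 and 21.0 in vemurafenib, and it fell by 1.14 ± 0.11 with vemurafenib (adjusted p = 1.04e-07) and by 1.54 ± 0.11 with the combination (adjusted p = 2.78e-09). KLF12, KLF14 and KLF15 rose with vemurafenib by 0.61 ± 0.11 (adjusted p = 0.000178), 0.59 ± 0.22 (adjusted p = 0.0355) and 0.42 ± 0.17 (adjusted p = 0.0458). KLF12, a CtBP-binding repressor like KLF3, fell by 0.53 ± 0.11 when tretinoin was added to vemurafenib (adjusted p = 0.00609), where KLF3 rose. Of the 9 related SP genes, which bind the same GC boxes, 5 passed the filter. With vemurafenib 1 of these 5, SP8, was called, where 52.6% of all tested genes were called, 26.4% higher. The general activators SP1 and SP2 had log2 fold changes of -0.01 ± 0.09 and -0.06 ± 0.10, while SP8 rose by 1.76 ± 0.39 (adjusted p = 0.001) from a level below 0.5 CPM in DMSO. SP8 had at most 34 counts in a sample. It passed the count filter through the samples with vemurafenib, where it was highest, so its called rise is not independent of the filter.

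**Figure D4:**
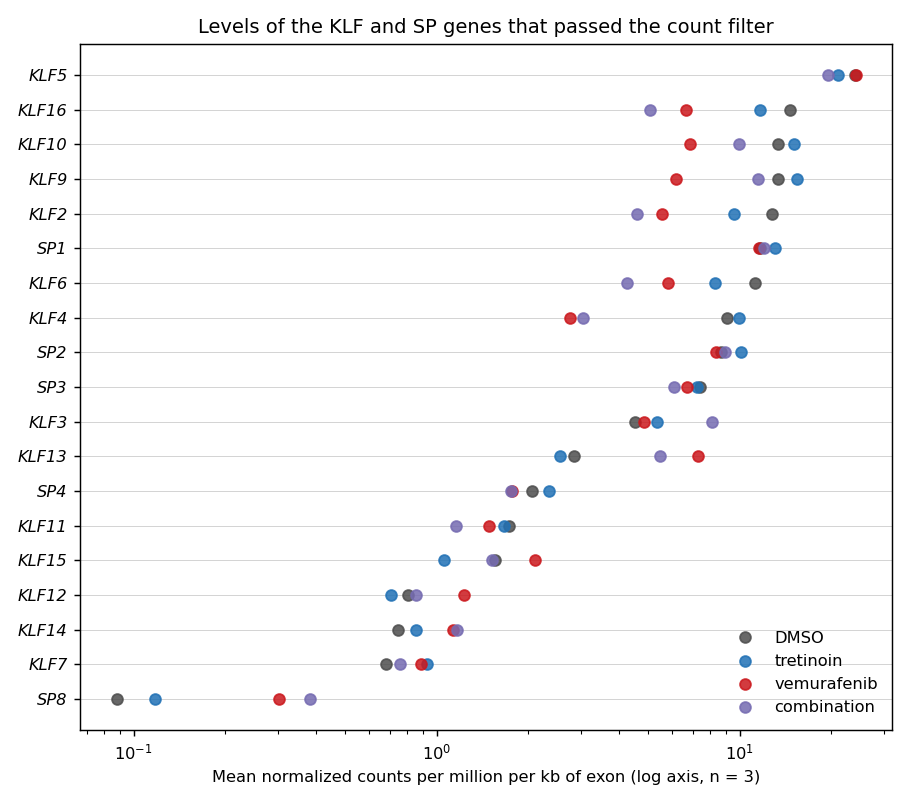
Mean normalized CPM per kilobase of exon (x axis, log scale, n = 3) in the 4 groups for the KLF and SP genes that passed the count filter (y axis, ordered by the DMSO level). KLF5 is highest and stays within 19.6 to 24.1, KLF16, KLF2, KLF6 and KLF4 spread to the left with vemurafenib, KLF13 spreads to the right, and SP1 and SP2 stay close together.

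Among 15 genes for partners of the factors and enzymes that mark them for degradation, 5 were called lower and 3 higher with vemurafenib, where 52.6% of all tested genes were called, and 8 were called lower with the combination, where 53.6% were called and 26.5% were called lower. With the combination the list's median log2 fold change was -0.20. CTBP2, a corepressor bound by KLF3, fell by 0.47 ± 0.08 with vemurafenib (adjusted p = 5.12e-05) and by 0.62 ± 0.08 with the combination (adjusted p = 2.03e-06). The deacetylase genes HDAC1 and HDAC2 fell by 0.25 ± 0.06 (adjusted p = 0.00261) and 0.55 ± 0.07 (adjusted p = 2.56e-06) with vemurafenib. SIN3A rose by 0.24 ± 0.08 with vemurafenib (adjusted p = 0.0179). The acetyltransferase gene CREBBP rose by 0.31 ± 0.10 (adjusted p = 0.0121). FBXW7 and WWP1, ubiquitin ligases that act on KLF5 protein, fell by 0.35 ± 0.09 (adjusted p = 0.0043) and 0.19 ± 0.07 (adjusted p = 0.0315) while the KLF5 transcript was not called. Of the other ubiquitin ligase genes listed, BTRC rose by 0.265 ± 0.086 (adjusted p = 0.0154), and SMURF1 and VHL were not called.

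Of 10 genes of the ERK5 and MEF2 route that induces KLF2 and KLF4 in endothelium, 9 passed the filter, and 4 rose and 2 fell with vemurafenib (median log2 fold change 0.15), where 26.4% of all tested genes rose and 26.3% fell. MEF2C was measured at 3.80, 4.05 and 3.38 CPM in DMSO and 18.02, 16.5 and 17.3 in vemurafenib, and it rose by 2.21 ± 0.12 (adjusted p = 6.31e-11). MAPK7, which encodes ERK5, and its activator MAP2K5 rose by 0.39 ± 0.12 (adjusted p = 0.0113) and 0.42 ± 0.08 (adjusted p = 0.000296). HDAC5, a deacetylase that represses MEF2 targets, rose by 0.82 ± 0.07 (adjusted p = 5.72e-08), and MEF2D and HDAC4 fell by 0.50 ± 0.08 (adjusted p = 4.87e-05) and 0.59 ± 0.12 (adjusted p = 0.000364).

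Of 17 genes known as KLF targets in other cell types 13 passed the filter, and 7 fell and 3 rose with vemurafenib (median log2 fold change -0.24), where 26.3% of all tested genes fell and 26.4% rose. CDKN1A and CDKN1B, CDK inhibitor genes, rose by 0.53 ± 0.08 (adjusted p = 1.51e-05) and 0.60 ± 0.08 (adjusted p = 8.86e-06). CCND1, the cyclin D1 gene, fell by 4.39 ± 0.11 (adjusted p = 3e-15). PDGFA, a target of KLF5, fell by 0.91 ± 0.10 (adjusted p = 5.43e-07), and SMAD7, which KLF10 represses, fell by 0.60 ± 0.10 (adjusted p = 0.000137). With tretinoin 4 of the 13 fell and 1 rose (median -0.20), where 2.2% of all tested genes fell and 3.48% rose, and CCND1 fell by 0.44 ± 0.09 (adjusted p = 0.0101). When tretinoin was added to vemurafenib 1 of the 13 was called, where 4.47% of all tested genes were called, 2.27% higher. It was the galectin gene LGALS3, which rose by 0.28 ± 0.07 (adjusted p = 0.0334).

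The genes whose log2 CPM over the 12 samples was most alike to each of the 4 widest-ranging members were also listed, as a description over samples that share the 4 treatments. For KLF4 these were RFC3, SH2B3 and AEN (Pearson r = 0.999, 0.997 and 0.996), and for KLF13 they were NXPE3, SLAIN1 and PJA2 (0.989, 0.989 and 0.988). For KLF2 they were RGS16, ATP6V1C1 and KLF16 (0.985, 0.982 and 0.981), and for KLF6 they were NSMF, PRXL2B and ACOT9 (0.987, 0.984 and 0.983). The counting ignored strand and used union mode, which leaves out fragments on exon bases shared by genes. So 2 of the genes can lose fragments where they overlap a neighbour on the opposite strand. KLF3 shares 266 of its 6297 exon bases with KLF3-AS1, and KLF11 shares 416 of its 4589 exon bases with AC104794.4. Beyond these neighbours, no other gene shared a stretch of 150 bases at 98% identity with a transcript of the 10 genes.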

How the data were processed

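RNA-seq of 12 A375 samples was analysed from the count files. Per the labels and methods, the deposited files hold raw counts, the number of fragments on each gene, obtained with poly(A) selection, paired-end sequencing, alignment with STAR 2.5.3a to GRCh38.p10 and counting on GENCODE 27 genes in union mode with strand ignored. Symbols, exon lengths and overlaps came from GENCODE 29, which holds 58084 of the 58347 identifiers. Genes were filtered with filterByExpr (16740 kept), normalized by TMM (factors 0.901 to 1.074) and tested with the quasi-likelihood test of edgeR 4.0.16 in R 4.3.3, with a term per group over all 12 samples and Benjamini-Hochberg adjustment over all genes tested in each comparison, at 0.05. CPM are TMM-normalized. Alternatives were DESeq2 1.42.0, other normalizations and filters, only the groups compared, a replicate block and each sample left out in turn. The tests were tried on simulated counts. Promoter windows were RefSeq sequences, searched in Python 3.11.15 for 6 motifs on both strands. Shared sequence was searched with blastn 2.17.0. Printed stretches were those of members with a single window and a vemurafenib call. The members and all gene lists were chosen with earlier results of these data known, and genes outside the lists were named by correlation alone. The values of 1 listed gene are not reported here. At the depth of KLF7 and KLF11, with 1625 and 1489 counts over the 12 samples, standard errors were 0.14 to 0.16 on the log2 scale for the single comparisons with DMSO.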

Additional observations from a re-analysis of the deposited data

Results flagged for a closer look

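The effect of tretinoin on KLF9 differed between cells without and with vemurafenib. The difference on the log2 scale was 0.70 ± 0.12 (SE, edgeR adjusted p = 0.00797), from 0.21 ± 0.08 without vemurafenib to 0.90 ± 0.09 with it. Without tretinoin replicate 1 the first of these effects was 0.11. KLF9 was higher in 3 of 3 tretinoin samples than in every DMSO sample, where 24.2% of all tested genes did not overlap. That tretinoin change was not called (edgeR adjusted p = 0.149). KLF9 was also higher in 3 of 3 combination samples than in every vemurafenib sample, for which the share over all genes was not computed.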

How the results depend on the processing

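Of 890 log2 fold changes of the 10 genes under alternative settings, 835 kept their direction and side of the threshold, 24 lost a call, 13 gained one and 18 changed sign. With tretinoin relative to DMSO the count called was 2 in place of 1 in DESeq2 without shrinkage, in DESeq2 with a beta prior, with DESeq2 size factors and with no low-count filter, KLF2 being the added gene, and 1 to 2 with a sample left out. For the interaction it was 2 in place of 1 with the beta prior and with no low-count filter, KLF3 being the added gene (adjusted p = 0.0449 and 0.0168), and 1 to 2 with a sample left out. The sign changes were all of uncalled values near 0. They were KLF11 with tretinoin (0.019 with total counts, -0.129 to 0.036 with a sample left out), KLF5 with vemurafenib (-0.01 with no filter, -0.095 to 0.077) and the interactions of KLF4 (-0.087 with total counts, -0.091 to 0.086), KLF6 (0.014 with no filter, -0.074 to 0.061) and KLF2 (-0.009 to 0.238). The cause was not tested. Scaling by total counts moved the median gene by 0.19 with vemurafenib, 0.16 with the combination and -0.10 in the interaction. KLF7 with vemurafenib was also not called with no filter (adjusted p = 0.0602). KLF9 in the combination relative to DMSO was also not called with no filter (adjusted p = 0.0781) or with at least 10 counts in every sample (adjusted p = 0.089). Same-numbered replicates did not deviate together (mean r = -0.03 over 18 pairs, -0.14 to 0.09), so the numbers were not taken as pairs. With the replicate number as a block the counts called were 1, 6, 8, 4, 8 and 1 for the comparisons in the order tretinoin, vemurafenib and combination relative to DMSO, combination relative to vemurafenib and to tretinoin, and interaction, against 1, 7, 9, 5, 8 and 1. KLF7 with vemurafenib (adjusted p = 0.0621), KLF9 with the combination (adjusted p = 0.0586) and KLF13 in the combination relative to vemurafenib (adjusted p = 0.0885) were not called there. Over all genes, the count called with tretinoin was 951, and 305 with only the groups compared, 1540 with no filter and 379 to 1367 with a sample left out. For the combination relative to vemurafenib it was 749, and 1269 with only the groups compared and 460 to 586 with a sample left out. For the interaction it was 135, and 258 and 265 in DESeq2 without and with the beta prior, 610 with no filter, 75 with the block and 60 to 265 with a sample left out. Counts of 91 to 112 for KLF7 in DMSO limit its precision.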
